A study of Rattus norvegicus with 18 samples.

Results

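Mast cells of the rat knee synovium were followed through 9 genes: the granule proteases Cpa3, Cma1, Mcpt1, Tpsab1 and Tpsb2, the histamine-forming enzyme Hdc, and the surface receptors Kit, Fcer1a and Ms4a2. They were chosen by name, as every gene probe whose name on the array was one of these symbols or a synonym in current use, and all 9 genes were found, on 12 of 41012 probes. RNA came from knee synovial tissue of male Lewis rats aged 6 to 8 weeks, an inbred strain prone to adjuvant arthritis, and was read on 18 single-colour Agilent arrays, 3 for each of 6 groups. These were adjuvant-induced arthritis (AIA), a cold model of that arthritis (AIA-cold) and the cold model given WTD, the Chinese herbal formula under study (AIA-cold-WTD), a hot model (AIA-hot) and the hot model given WTD (AIA-hot-WTD), and normal control rats. The study kept 6 rats per group; the sources used here do not say which rats gave the RNA of an array, how either model was made or at what dose WTD was given, so p-values measure the spread between these arrays, which may be partly technical.

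Mast cells mature in tissues from marrow-derived precursors under the control of Kit, the receptor for stem cell factor. They bind IgE through FceRI, a receptor whose alpha chain (Fcer1a) holds the antibody and whose beta chain (Ms4a2) amplifies the signal. Cross-linking of that receptor empties granules that hold histamine, tryptases, chymases and carboxypeptidase A3, and mast cells are a normal resident of the synovium. In a piece of tissue, fewer cells of a type and less RNA per cell cannot be told apart.

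The members differed widely in how often they could be detected. The flag for a signal well above background was set on all 18 arrays for both Cma1 probes (the mast cell chymase) and for Tpsab1 (a tryptase), and on 17 for Cpa3, Tpsb2, Hdc and the first Ms4a2 probe, the exception being control replicate 1 each time. Fcer1a was well above background on 11 arrays, each of the 2 Kit probes on 6, the second Ms4a2 probe on 4 and Mcpt1 on 1. A total of 8 genes on 10 probes passed the filter used for testing, which required that flag on each of the 3 arrays in 1 group or more. Mcpt1 did not, and has no test.

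The name Mcpt1 covers different transcripts on the array and in current annotation. The probe that the array names Mcpt1 lies on chromosome 15 at chr15:34272209-34272268 (plus strand, rn4) and matches a transcript that RefSeq now calls Vch. A neighbouring probe that the array names Mcpt2, at chr15:34557829-34557888 (plus strand, rn4), matches a transcript that RefSeq now calls Mcpt1. Both 60-base probes are shown because the answer for Mcpt1 depends on which is read, and they share no run longer than 7 bases:
Mcpt1 (array name): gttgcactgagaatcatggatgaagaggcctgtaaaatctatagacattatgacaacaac
Mcpt2 (array name): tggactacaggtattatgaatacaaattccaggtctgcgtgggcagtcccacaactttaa
The probe named Mcpt1 was well above background on AIA-cold replicate 3 and on no other array. The probe named Mcpt2 was well above background on 17 of 18 arrays, and its values are given beside the members, by its array name, though the rule did not choose it.

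Probes of the other members are also 60 bases long. Those of Cpa3 (chr2:105385518-105385577, minus strand), the second of Cma1 (chr15:34083409-34083468, minus strand), Fcer1a (chr13:89434270-89434329, minus strand) and the second of Ms4a2 (chr1:214012629-214012688, plus strand) are given in rn4 coordinates as the array's own annotation lists them, and are shown because they span the range from probes detected nearly throughout to probes detected on few arrays:
Cpa3: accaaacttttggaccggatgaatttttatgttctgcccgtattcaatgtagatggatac
Cma1 probe 2: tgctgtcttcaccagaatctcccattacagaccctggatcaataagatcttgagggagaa
Fcer1a: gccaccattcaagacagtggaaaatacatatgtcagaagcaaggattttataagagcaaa
Ms4a2 probe 2: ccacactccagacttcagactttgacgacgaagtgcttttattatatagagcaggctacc
No probe's level is set against another's below, since brightness depends on the probe. Levels are log2 signals relative to the 75th percentile of the gene probes on the same array, so that 0 is that percentile and each unit is a doubling.

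Control replicate 1 stood apart from the other arrays, and every comparison with control rests on it in part. Its 75th percentile was 68.9 signal units, against 201 to 331 on the other 17 arrays, and 43.3% of its probes were well above background, against 56.4% to 76.6%. Over its 6 measured cartilage genes the mean level was 5.78, against -1.27 to 2.12 on the other arrays, and over 7 macrophage genes it was 1.80, against 2.89 to 3.57. It held the lowest of all 18 levels for Cpa3, both Cma1 probes, Tpsb2, the first Ms4a2 probe, Hdc and the probe named Mcpt2. It held the highest for Tpsab1, and also for the first Kit probe and Mcpt1, neither of which was well above background on it. The part of tissue make-up and of weak signal in these values was not tested, and the main differences from control are also given without this array.

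**Figure D1:**
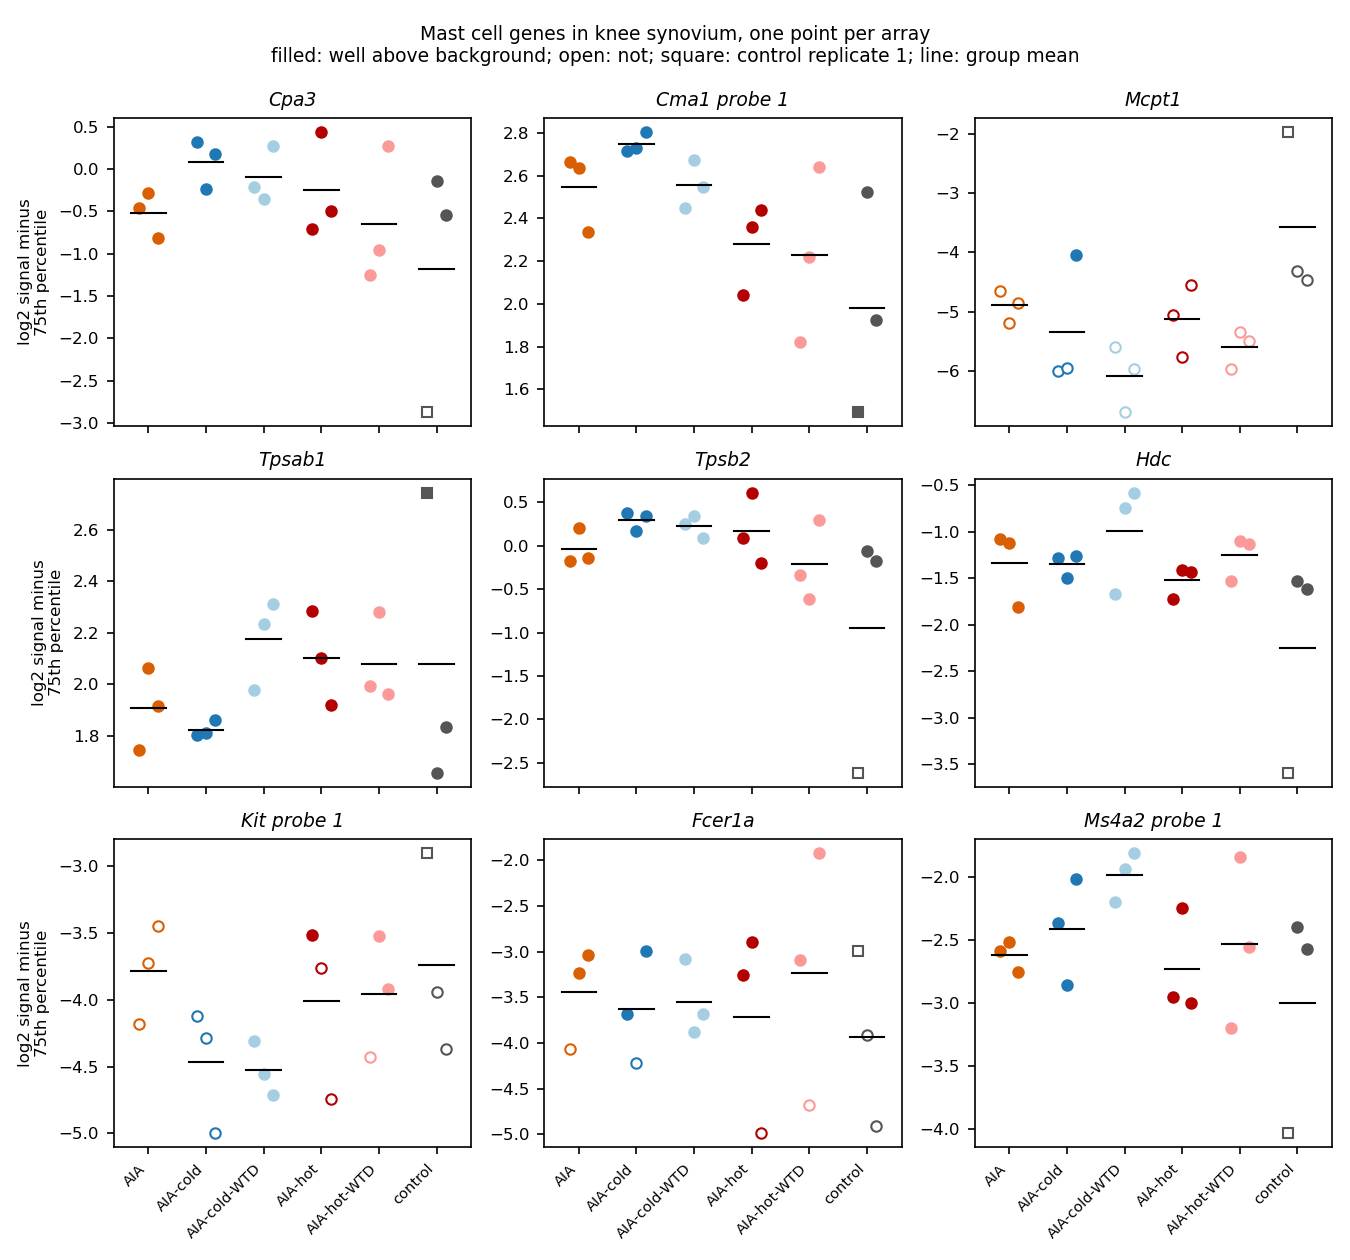
Level of each mast cell gene on every array (vertical axes, log2 signal minus the 75th percentile of the array) in the 6 groups (horizontal axis), with filled points well above background, open points not, a line at the group mean and a square for control replicate 1. That array is the lowest of 18 for Cpa3, Cma1, Tpsb2, Hdc and Ms4a2 and the highest for Tpsab1, Kit and Mcpt1. On it only Cma1 and Tpsab1 are well above background.

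Cma1, the chymase, had its highest mean level in the cold model. The brighter of its probes, on chromosome 15, read 2.66, 2.64 and 2.34 in AIA, 2.72, 2.73 and 2.80 in AIA-cold, and 2.45, 2.67 and 2.55 in AIA-cold-WTD. It read 2.04, 2.36 and 2.44 in AIA-hot, 1.82, 2.22 and 2.64 in AIA-hot-WTD, and 1.49, 2.53 and 1.92 in control synovium. All 3 AIA-cold arrays lay above the other 15 arrays on this probe. The share of all genes with such a gap was not counted, and shares for pairs of groups are given below. The AIA-cold arrays also shared a slide, on which the only other array was AIA-cold-WTD replicate 1. Group means ran from 2.75 ± 0.05 in AIA-cold through 2.56 ± 0.11 in AIA-cold-WTD, 2.55 ± 0.18 in AIA, 2.28 ± 0.21 in AIA-hot and 2.23 ± 0.41 in AIA-hot-WTD to 1.98 ± 0.52 in control (SD, n = 3 each). Of the 5 steps in that order, the gap was larger than the SD of both neighbours between AIA-cold and AIA-cold-WTD and between AIA and AIA-hot. The second probe also had its highest mean in AIA-cold, 1.04 ± 0.12, against 0.15 ± 0.75 in control, with AIA-hot-WTD replicate 3 (1.00) inside the AIA-cold range, and the correlation of both probes over the 18 arrays was 0.96 (0.94 without control replicate 1).

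Cpa3 encodes carboxypeptidase A3, stored with chymase in the granule. Its levels were -0.47, -0.28 and -0.81 in AIA, 0.32, -0.24 and 0.18 in AIA-cold, and -0.22, -0.35 and 0.27 in AIA-cold-WTD. They were -0.70, 0.43 and -0.49 in AIA-hot, -1.25, -0.95 and 0.27 in AIA-hot-WTD, and -2.87, -0.14 and -0.54 in control. The AIA-cold arrays lay just above the AIA arrays, as for 10.7% of all genes, and all other pairs of groups overlapped. AIA-cold was highest by mean (0.09 ± 0.29) and control lowest (-1.18 ± 1.47, or -0.34 ± 0.28 over the other 2 controls), and no step between neighbouring groups was larger than the SD of both. AIA-hot-WTD replicate 3, well above the other AIA-hot-WTD arrays for Cpa3, also had the highest mean over 6 skeletal muscle genes (4.24, against -1.95 and -1.68 in its group), whose part was not tested.

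The tryptase genes Tpsb2 and Tpsab1, neighbours on chromosome 10, did not follow each other. Tpsb2 levels were -0.17, 0.20 and -0.14 in AIA, 0.37, 0.17 and 0.34 in AIA-cold, and 0.25, 0.34 and 0.09 in AIA-cold-WTD. They were 0.08, 0.61 and -0.20 in AIA-hot, -0.34, -0.61 and 0.30 in AIA-hot-WTD, and -2.61, -0.06 and -0.18 in control. All AIA-cold and AIA-cold-WTD arrays exceeded all controls, as for 10.8% and 6.45% of all genes, and the other groups overlapped the controls. Tpsab1 levels were 1.74, 2.06 and 1.92 in AIA, 1.80, 1.81 and 1.86 in AIA-cold, and 1.98, 2.24 and 2.31 in AIA-cold-WTD. They were 2.28, 2.10 and 1.92 in AIA-hot, 2.00, 2.28 and 1.96 in AIA-hot-WTD, and 2.74, 1.66 and 1.84 in control. Here AIA-cold was the lowest group by mean (1.82 ± 0.03), below AIA-hot, AIA-cold-WTD and AIA-hot-WTD on every array. Such a gap was found for 6.79% of all genes below AIA-hot and 7.7% below AIA-cold-WTD, and was not counted for AIA-hot-WTD. The 2 probes share no run longer than 8 bases.

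Hdc, which makes histamine from histidine, read -1.08, -1.12 and -1.81 in AIA, -1.29, -1.50 and -1.26 in AIA-cold, and -1.67, -0.74 and -0.58 in AIA-cold-WTD. It read -1.72, -1.41 and -1.43 in AIA-hot, -1.53, -1.10 and -1.13 in AIA-hot-WTD, and -3.59, -1.53 and -1.62 in control. The AIA-cold arrays lay above all controls, as for 10.8% of all genes, and without control replicate 1 the other controls lay within the range of the arthritic arrays. The chymase-family probe named Mcpt2 averaged -0.40 ± 0.18 in AIA-cold, its highest group, and -1.20 ± 0.75 in control, its lowest (SD, n = 3 each). Its AIA-cold arrays also lay above all controls (10.8% of all genes).

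Of the receptor genes, only Ms4a2 was detected nearly throughout, on its first probe. Ms4a2 there had means between -2.73 ± 0.42 (AIA-hot) and -1.98 ± 0.20 (AIA-cold-WTD) in the arthritic groups and -3.00 ± 0.90 in control, and its AIA-cold-WTD arrays (-2.20, -1.94 and -1.81) lay above all controls (-4.03, -2.39 and -2.57). Such a gap was found for 6.45% of all genes. The step from AIA-cold-WTD to AIA-cold was larger than the SD of both groups, and the other steps were not. Its highest levels were -1.81 and -1.94 on AIA-cold-WTD replicates 3 and 2, -1.84 on AIA-hot-WTD replicate 2 and -2.01 on AIA-cold replicate 3. These 4 arrays, picked after the values were seen, also had the highest means of 6 basophil genes (-0.14, -1.06, -0.08 and -1.23, against -1.77 or less on the others) and of 4 neutrophil genes (5.20, 3.88, 5.22 and 2.98, against 2.83 or less). The same held for 6 marrow progenitor genes (-0.31, -0.74, 0.02 and -1.23, against -1.55 or less), a list that shares Ms4a3 with the basophil list. Basophils carry the same IgE receptor, and the part of other blood cells in the Ms4a2 level was not tested.

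Fcer1a levels lay between -4.99 and -1.92 over the arthritic arrays, with a median of -3.25 (well above background on all 3 AIA-cold-WTD arrays and on 2 of 3 in each other arthritic group), and at -3.00, -3.91 and -4.91 in control, on none of which it was well above background. No fold against control is given, because the arthritic mean (-3.51) lay below the mean over the 3 controls of the lowest signal well above background (-3.16). That mean includes control replicate 1 (-1.86), and the limits of the other 2 controls, -3.90 and -3.72, were below the arthritic mean. The first Kit probe, on chromosome 14, was well above background on all 3 AIA-cold-WTD arrays, 1 AIA-hot and 2 AIA-hot-WTD arrays and no array of AIA, AIA-cold or control. The second Kit probe, which the array annotation places nowhere in rn4, was so on 2 AIA-cold, 3 AIA-cold-WTD and 1 AIA-hot-WTD array. Kit was thus below the detection flag on both probes in all AIA and control arrays, and the second Ms4a2 probe was above it only on 2 AIA-cold-WTD and 2 AIA-hot-WTD arrays, so the probes of these genes could not be compared between most groups.

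Whether a dim receptor was detected moved with the sensitivity of the array. The lowest signal well above background was -5.25 on AIA-cold-WTD replicate 3, where 11 of 12 member probes were detected, and -1.86 on control replicate 1, where 3 were. On the AIA-cold-WTD arrays, which had the lowest limits, both Kit probes were detected on all 3 arrays, while each AIA-hot-WTD array had Kit detected by 1 probe. Counts of detected arrays therefore do not rank the groups by level.

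**Figure D2:**
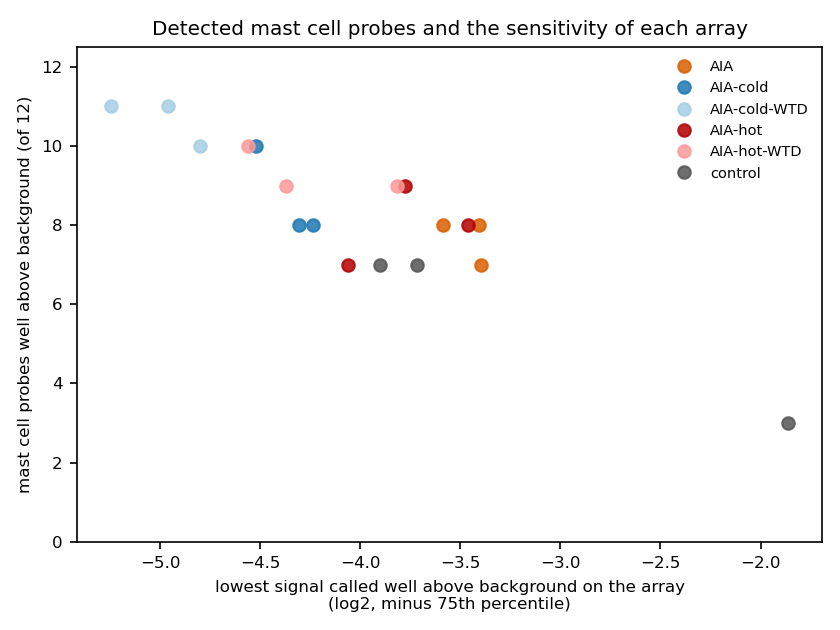
Number of the 12 mast cell probes well above background on each array (vertical axis) against the lowest signal called well above background there (horizontal axis, log2 minus the 75th percentile), coloured by group. AIA-cold-WTD arrays detect 10 to 11 probes at the lowest limits and control replicate 1 detects 3 at the highest.

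No member passed the test in any comparison. Over the 6 groups together, the limma F test called 0 of 8 members at a Benjamini-Hochberg adjusted p under 0.05 (7 of 23617 genes or transcripts, 0.0296%, were called) and 0 at an unadjusted p under 0.05 (10.8% of all). The smallest adjusted p of a member in that limma F test was 0.493, for Cma1.

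The first question was whether arthritic synovium, taken over its 5 groups, differed from control. The 3 controls shared their slide with AIA replicate 1 and with no other arthritic array, so slide and group can hardly be told apart here. Cma1, Tpsb2 and Hdc were higher by 0.49 ± 0.18, 1.04 ± 0.38 and 0.95 ± 0.34 (log2, SE), Cpa3 by 0.90 ± 0.44 and Ms4a2 by 0.54 ± 0.31. Tpsab1 gave -0.06 ± 0.17. The fitted values of Fcer1a (0.42 ± 0.53) and Kit (-0.41 ± 0.31) rest on control signals of which none was well above background, and are not fold changes. Kit and Ms4a2 stand here on their first probes. The second Kit probe gave 0.58 ± 0.52 and the second Ms4a2 probe -0.14 ± 0.47, each of the opposite sign to the first. Neither second probe was well above background on any control. limma called 0 of 8 members, where 0.902% of all genes were called, with adjusted p from 0.161 to 0.873. At an unadjusted p under 0.05 there were 3 members (Cma1, Tpsb2 and Hdc), where 18.9% of all genes passed. The median over members was 0.52, against -0.04 over all genes tested. This median and the members' medians below include the fitted values of Fcer1a and Kit. Without control replicate 1 the median was 0.23 (all genes -0.02), the difference was 0.06 ± 0.34 for Cpa3 and 0.21 ± 0.21 for Tpsb2, Cma1 was 0.25 ± 0.19, Hdc 0.28 ± 0.24 and Ms4a2 0.03 ± 0.28, and Tpsab1 was 0.27 ± 0.12 (adjusted p = 0.449 from limma). No member's 15 arthritic arrays were separate from the 3 controls, as was so for 0.682% of genes on the higher side and 0.847% on the lower. The 95% interval of Tpsb2 with all arrays ran from 0.22 to 1.85.

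**Figure D3:**
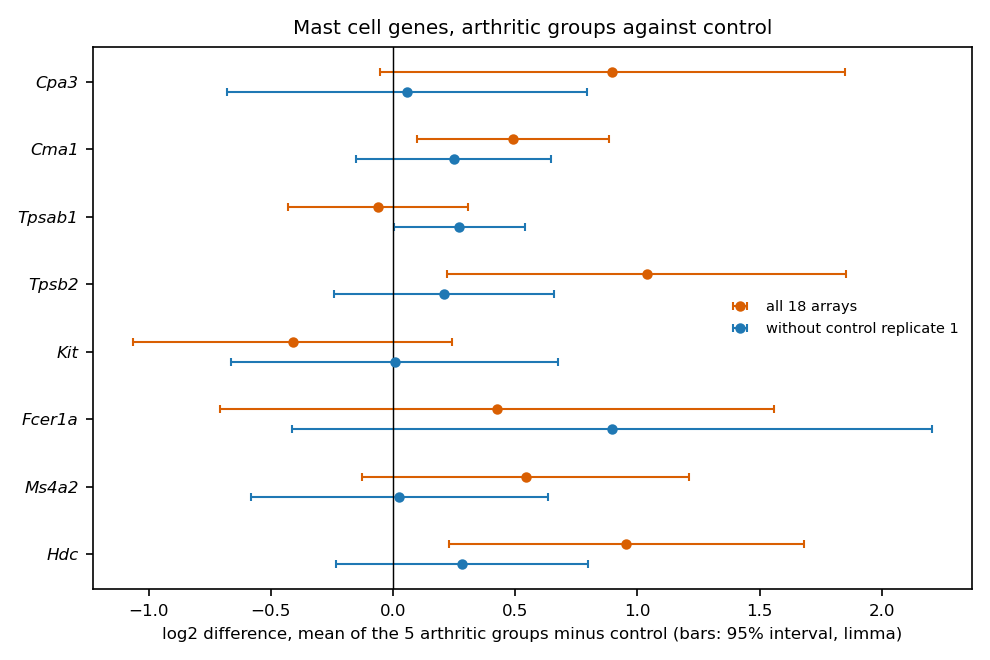
Log2 difference of 8 mast cell genes between the mean of the 5 arthritic groups and control (horizontal axis, points with 95% intervals from limma), with all 18 arrays and without control replicate 1. Cpa3, Tpsb2 and Hdc lie near 1 with all arrays and between 0.06 and 0.28 without that control.

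Taken group by group, the members' median difference from control was 0.53 in AIA, 0.68 in AIA-cold, 0.80 in AIA-cold-WTD, 0.28 in AIA-hot and 0.50 in AIA-hot-WTD. In AIA-cold, Cma1 was higher by 0.77 ± 0.24 (SE, adjusted p = 0.115 in the limma fit, higher on 3 of 3 arrays than every control), Tpsb2 by 1.24 ± 0.49 and Hdc by 0.90 ± 0.44, and their arrays did not overlap the controls. Such a gap was found for 10.8% of all genes on the higher side and 14.1% on the lower, where no member lay. limma called 0 of 8 members (0.533% of genes called), and 3 (Cma1, Cpa3 and Tpsb2) passed at an unadjusted p under 0.05 (18.7% of genes). Without control replicate 1, Cma1 was 0.53 ± 0.22 higher (adjusted p = 0.297 from limma), Tpsb2 gave 0.41 ± 0.25, Hdc 0.22 ± 0.29 and Cpa3 0.43 ± 0.42, of which Cma1 alone had an unadjusted p under 0.05, and without control replicate 2 it was called, at 1.04 with an adjusted p of 0.0429 from limma. AIA-cold and control arrays shared no slide, so slide and group cannot be told apart there.

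For AIA, limma called 0 of 8 members (0.0% of genes called) and Cma1 alone passed at an unadjusted p under 0.05 (6.28% of genes), with a difference of 0.57 ± 0.24 (SE). AIA replicate 1 shared a slide with the 3 controls, and within that slide the Cma1 difference was 0.68. The AIA difference of Cma1 was 0.32 ± 0.22 without control replicate 1. For AIA-hot the count was 0 of 8 (0.055% of genes called) with Tpsb2 at an unadjusted p under 0.05 (12.1% of genes). For AIA-cold-WTD it was 0 of 8 (0.0296%), with Tpsb2 and Ms4a2 on arrays that lay above all controls (6.45% of genes higher, 9.84% lower) and 4 members, Cma1, Tpsb2, Ms4a2 and Hdc, at an unadjusted p under 0.05 (15.1%). For AIA-hot-WTD it was 0 of 8 (0.0804%), with Hdc at an unadjusted p under 0.05 (13.5%). No member's arrays were separate from control in AIA (5.32% of genes higher, 5.33% lower), AIA-hot (5.02% and 8.05%) or AIA-hot-WTD (6.78% and 11.2%). These 5 comparisons share their controls. No AIA-hot, AIA-cold-WTD or AIA-hot-WTD array shared a slide with a control, so slide and group are not cleanly separated in those comparisons either. Without control replicate 1, the members just named for the 4 groups other than AIA-cold all had an unadjusted p above 0.05. In AIA-cold-WTD, Cma1 was then 0.33 ± 0.22, Tpsb2 0.35 ± 0.25, Ms4a2 0.50 ± 0.34 and Hdc 0.58 ± 0.29. In AIA-hot, Tpsb2 was 0.29 ± 0.25, and in AIA-hot-WTD, Hdc was 0.32 ± 0.29. Tpsab1 had an unadjusted p under 0.05 instead, at 0.43 ± 0.15 in AIA-cold-WTD, 0.36 ± 0.15 in AIA-hot and 0.33 ± 0.15 in AIA-hot-WTD, with adjusted p from 0.298 to 0.446 in the limma fit. The share of all genes at that unadjusted threshold without control replicate 1 is not given here, for AIA-cold or for these groups. Members that passed it there therefore cannot be set against all genes. In the same fit, the members' median difference was 0.20 for AIA, 0.32 for AIA-cold, 0.12 for AIA-hot, 0.39 for AIA-cold-WTD and 0.10 for AIA-hot-WTD.

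Between AIA-cold and AIA-hot, Cma1 had the smallest p of the members. All AIA-cold arrays lay on a slide with no AIA-hot or AIA array, so slide and group cannot be told apart in either comparison. Cma1 was higher in AIA-cold than in AIA-hot by 0.47 ± 0.24 (SE, adjusted p = 0.927 in the limma fit), with all 3 AIA-cold arrays above all AIA-hot arrays, while Tpsab1 was 0.28 ± 0.22 lower on non-overlapping arrays. Separate arrays were seen for 8.28% of all genes on the higher side and 6.79% on the lower side. limma called 0 of 8 members (0.00847% of genes called), and 0 passed at an unadjusted p under 0.05 (5.48%). With control replicate 1 left out of the shared fit the difference of Cma1 was the same and its SE 0.20 (adjusted p = 0.533 from limma). Cma1 alone then had an unadjusted p under 0.05, and the share of all genes there is not given. AIA-cold against AIA gave 0 of 8 (0.0% of genes called, 9.06% at an unadjusted p under 0.05, with no member among them), with Cpa3 at 0.61 ± 0.57 and Cma1 at 0.20 ± 0.24 on arrays above all AIA arrays (10.7% of genes higher, 13.5% lower). AIA-hot against AIA gave 0 of 8 (0.0%, and 5.12% unadjusted with no member), with differences from -0.27 to 0.27 and all arrays overlapping (4.07% of genes higher, 5.85% lower did not). On the slide that held 2 AIA-hot and 2 AIA arrays, the Cma1 difference was -0.29 and that of Tpsb2 0.31.

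WTD treatment was asked about in each model. In the cold model, Tpsab1 was 0.35 ± 0.22 higher and Cma1 0.19 ± 0.24 lower in AIA-cold-WTD than in AIA-cold (SE), both on non-overlapping arrays (7.7% of genes on the higher side and 6.71% on the lower). Ms4a2 was 0.43 ± 0.40 and Hdc 0.36 ± 0.44 higher, on overlapping arrays. limma called 0 of 8 members (0.00847% of genes called), with no member at an unadjusted p under 0.05 (6.08%). With control replicate 1 left out of the shared fit the Tpsab1 difference had an SE of 0.13 (adjusted p = 0.463 from limma). Tpsab1 alone then had an unadjusted p under 0.05, and the share of all genes there is not given. On the slide that held AIA-cold-WTD replicate 1 and the 3 AIA-cold arrays, the difference was 0.15 for Tpsab1, -0.30 for Cma1 and -0.32 for Hdc, so that Hdc had the opposite sign there. In the hot model, limma called 0 of 8 (0.0%), with no member at an unadjusted p under 0.05 (2.28%) and differences from -0.39 (Cpa3) to 0.48 (Fcer1a), and all members' arrays overlapped (2.64% of genes higher and 4.45% lower did not). The 3 AIA-hot-WTD arrays shared their slide with AIA-hot replicate 3 alone, so slide and group are not cleanly separated. Within that slide the differences ran from -0.21 (Cma1) to 1.75 (Fcer1a, not well above background on AIA-hot replicate 3), with Cpa3 at -0.15.

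Taking both models together, the WTD groups differed from the untreated models by 0.16 ± 0.16 for Tpsab1, -0.12 ± 0.17 for Cma1, -0.29 ± 0.41 for Cpa3 and 0.31 ± 0.29 for Ms4a2 (SE), with 0 of 8 members called by limma (0.0%), none at an unadjusted p under 0.05 (3.7%) and none on separate arrays (0.0677% of genes higher, 0.14% lower). The effect of WTD in the cold model minus that in the hot model ran from -0.40 ± 0.97 (Fcer1a) to 0.37 ± 0.32 (Tpsab1), with 0 of 8 called (0.0%) and none at an unadjusted p under 0.05 (4.18%). With slide as a fixed block the Tpsab1 value was -0.01, and leaving out 1 array moved the Fcer1a value between -1.12 (without AIA-hot-WTD replicate 2) and 0.26 (without AIA-hot-WTD replicate 3). The 95% intervals for WTD in the cold model ran from -1.41 to 1.04 for Cpa3 and from -0.70 to 0.31 for Cma1, so that a doubling of Cma1 under WTD lies outside the interval and a doubling of Cpa3 does not.

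**Figure D4:**
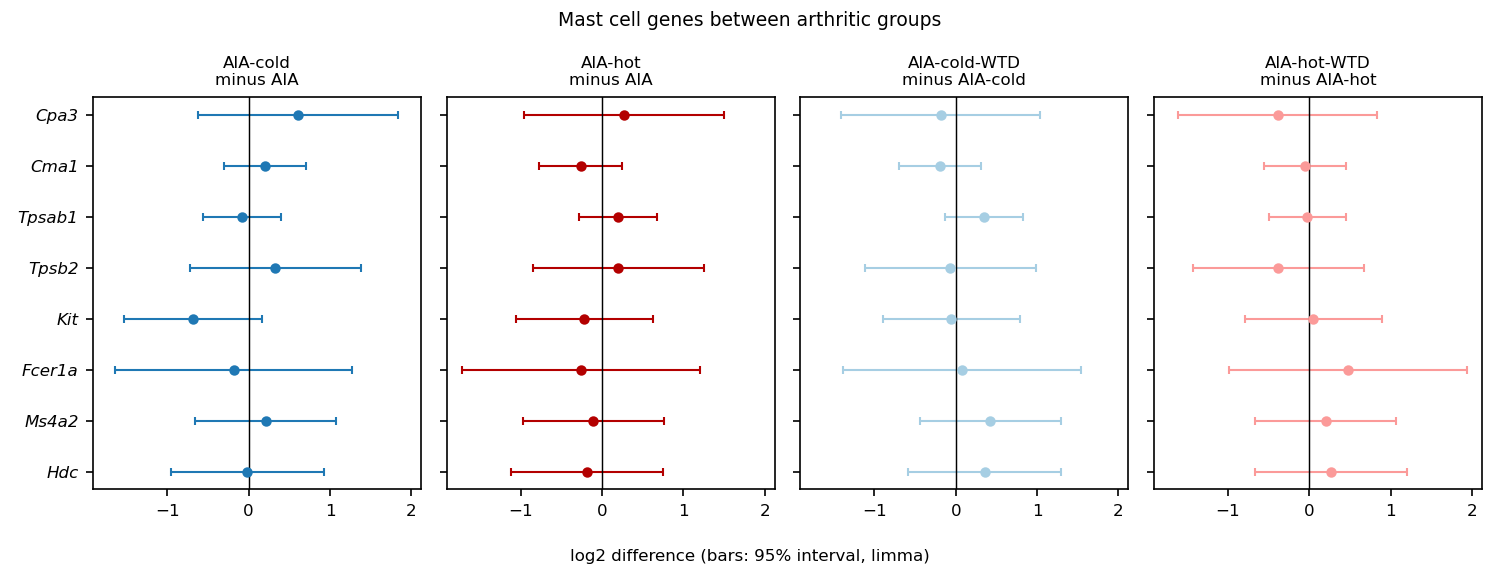
Log2 differences of 8 mast cell genes between arthritic groups (horizontal axes, points with 95% intervals from limma), with the group named first minus the second in each panel. All intervals include 0, and those of Cma1 and Tpsab1 are the narrowest. Kit is drawn from its first probe. Its second probe had the opposite sign in AIA-cold minus AIA (1.34, against -0.68) and in AIA-cold-WTD minus AIA-cold (0.38, against -0.06), and the same sign in the other panels.

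Among themselves, Cpa3, Cma1 and Tpsb2 varied together from array to array. Over 18 arrays, which share groups and slides, Pearson's r of Cpa3 was 0.93 with Tpsb2 (Spearman 0.84), 0.81 with Cma1 (0.67), 0.79 with Hdc (0.44) and 0.88 with the probe named Mcpt2 (0.82). Without control replicate 1 these were 0.81, 0.67, 0.36 and 0.79, and without the 2 arrays farthest from the Cpa3 median 0.79, 0.55, 0.33 and 0.73. Cpa3 thus varied with Tpsb2, Cma1 and the probe named Mcpt2 on the other 17 arrays too, while its relation with Hdc was weaker there. Cma1 and Tpsb2 were less close, at 0.74 over 18 arrays and 0.54 without control replicate 1. Without the 2 arrays farthest from the Cma1 median that pair gave 0.46. Cma1 gave 0.87 with the probe named Mcpt2 (0.78 without control replicate 1). Tpsab1 gave -0.59 with Cpa3 and -0.61 with Tpsb2, and -0.12 and 0.01 without control replicate 1. The first Kit probe gave -0.56 with Cpa3 (-0.24 without), and Fcer1a 0.06 (0.34 without). These correlations are descriptions of 78 pairs of probes and carry no test.

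**Figure D5:**
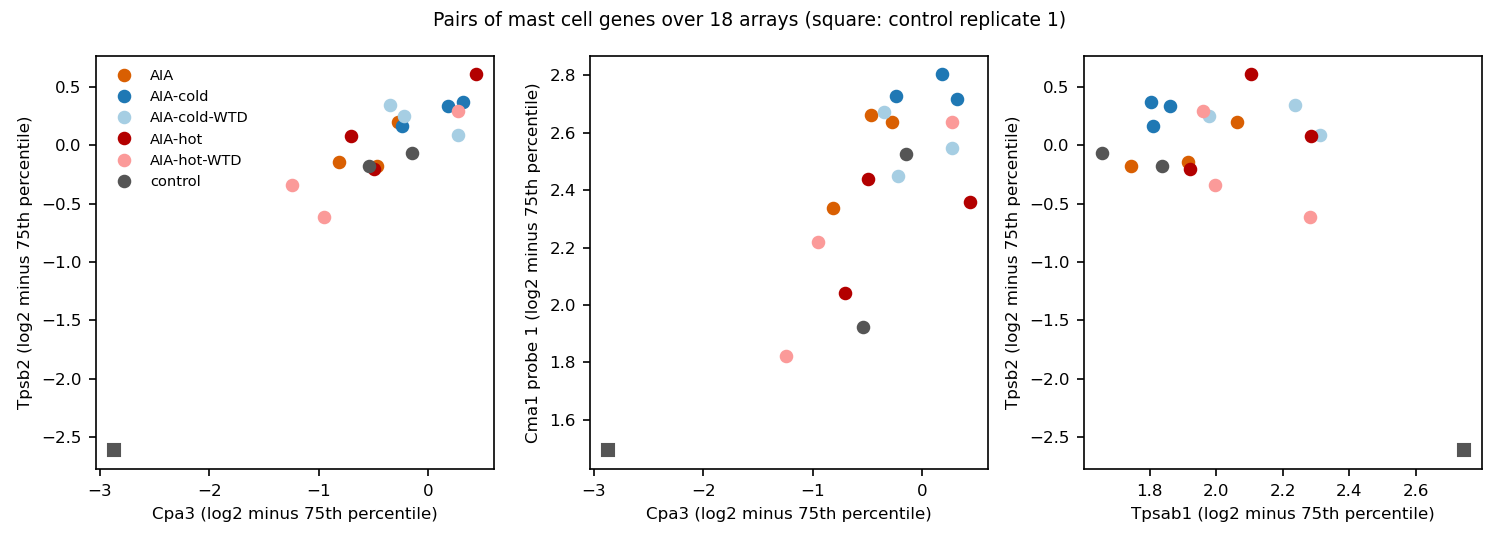
Levels of pairs of mast cell genes on the 18 arrays (axes in log2 signal minus the 75th percentile), coloured by group, with control replicate 1 as a square. Cpa3 and Tpsb2 lie along a line (r 0.93, and 0.81 without the square), and Tpsab1 and Tpsb2 do not (0.01 without it).

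Genes whose pattern was most like the mean of the 8 members were taken by their correlation over 18 arrays among 11971 genes with a symbol. The highest were Marchf8 (r 0.84), Arhgap4, Cd22, Glipr1, Stxbp5, Ccdc80, Vps26b, Tbp, Dnmt3b and Ints4 (0.80). After each group's mean was removed, the highest were Cd300c2 (0.91), Milr1 (0.89), C1qc, Csf1r, an Igsf7-like gene, Ninj1, Fam110a, Vps26b, Lyz2 and Inpp5d (0.86). Milr1 encodes a mast cell immunoglobulin-like receptor, Csf1r is one of the macrophage genes measured here and Inpp5d one of the FceRI signalling genes. The list is therefore not particular to mast cells. Over 17 arrays, without control replicate 1, r was 0.65 for Marchf8 and 0.56 for Dnmt3b, and the highest of any gene was 0.69 (Tbp). With each group's mean removed and without that array, r was 0.88 for Cd300c2, 0.84 for Milr1 and 0.89 for Csf1r, and the highest was 0.93 (Folr2).

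The promoters of Cpa3, Cma1 and Tpsb2 are shown because the levels of these genes varied together, though Cma1 with Tpsb2 less closely than either with Cpa3. GATA factors bind a core that was searched as GATAA on both strands, and it occurred in 26.1% of 27457 rat promoters of the same 300-base length (250 bases before the start to 50 after, RefSeq, GRCr8). Promoters were found for 7 members and for the genes now called Vch and Mcpt1, and not for Ms4a2. GATAA occurred in 6 of these 9 (Cpa3, Cma1, Tpsab1, Fcer1a, Vch and Mcpt1) and not in those of Tpsb2, Kit and Hdc. In Cpa3 it began at position -54 and in Cma1 at -63 relative to the start. CANNTG, the E-box core, occurred in 6 of the 9 and in 71.6% of all promoters. Capitals mark GATAA in the sequences, which lie at chr2:104673188-104673487 (minus strand), chr15:33390084-33390383 (minus strand) and chr10:14886060-14886359 (plus strand), in that order:
Cpa3 promoter: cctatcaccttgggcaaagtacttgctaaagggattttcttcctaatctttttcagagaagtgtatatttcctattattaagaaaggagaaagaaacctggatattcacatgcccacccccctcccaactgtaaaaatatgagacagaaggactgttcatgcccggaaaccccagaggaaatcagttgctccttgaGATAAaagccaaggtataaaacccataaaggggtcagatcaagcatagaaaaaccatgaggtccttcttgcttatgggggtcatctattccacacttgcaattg
Cma1 promoter: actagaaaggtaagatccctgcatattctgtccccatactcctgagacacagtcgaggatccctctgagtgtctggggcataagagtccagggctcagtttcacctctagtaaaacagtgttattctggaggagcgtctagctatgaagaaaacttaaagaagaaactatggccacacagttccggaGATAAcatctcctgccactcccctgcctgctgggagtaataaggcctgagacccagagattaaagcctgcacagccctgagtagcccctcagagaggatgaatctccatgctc
Tpsb2 promoter: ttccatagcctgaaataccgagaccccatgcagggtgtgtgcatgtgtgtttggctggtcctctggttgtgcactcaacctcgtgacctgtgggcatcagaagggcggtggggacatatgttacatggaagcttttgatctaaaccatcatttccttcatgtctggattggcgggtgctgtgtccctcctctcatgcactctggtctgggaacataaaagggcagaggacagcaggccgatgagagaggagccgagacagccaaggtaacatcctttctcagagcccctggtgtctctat
A match is a description of the letters and not a bound site.

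Other genes of mast cells gave no call either. Of 13 further mast cell and related granule proteases, 9 were on the array and 5 passed the filter, with 0 called in any comparison. The 5 were the probe named Mcpt2, Mcpt1l2, Mcpt1l4, Ctsg and Gzmb, and the last 2 are not particular to mast cells. The median difference of the 5 for the arthritic groups against control was 0.50 (all genes -0.04), the value of the probe named Mcpt2. Mcpt1l2, the brightest, was at -0.50. Of 15 granule and lipid mediator genes all 15 were tested, with a median of -0.05 and 0.00 for Cd63, a granule membrane protein. The 15 genes of FceRI signalling had a median of 0.28, and Fcer1g, the shared gamma chain of that receptor, gave 0.31. The 10 tested of 16 mast cell identity and surface genes had a median of -0.06, with C5ar1, the C5a receptor, at 0.27. The 8 tested of 12 growth factor and receptor genes had a median of -0.15, with Kitlg, the ligand of Kit, at -0.28. The 3 tested of 7 genes of the histamine pathway had a median of 0.25, with Slc18a2, which loads histamine into granules, at 0.25. limma called 0 of these genes in any of the 13 contrasts. With control replicate 1 left out, the medians were 0.45 for the proteases, -0.18 for granule and lipid mediators, -0.05 for FceRI signalling, -0.01 for identity and surface genes, -0.07 for growth factors and 0.04 for histamine, against -0.02 over all genes, and the probe named Mcpt2 was at 0.09.

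Markers of the cells that share genes with mast cells were also measured. The 6 tested of 8 basophil genes had a median difference of 1.63 between the arthritic groups and control and the 2 tested of 7 eosinophil genes 0.79, with 0 called (1.82 and 1.15 without control replicate 1), and Prss34, a basophil protease, was well above background on no array. The mean level of the basophil genes lay between -2.80 and -0.14 in AIA-cold-WTD and between -1.98 and -0.08 in AIA-hot-WTD, and between -3.59 and -2.42 in control. Over all 19 comparison lists, 125 of 168 genes were tested and 2 were called, both in the arthritic groups against control, where 0.902% of all genes were called. These were Gzmm, a protease of cytotoxic lymphocytes, at 1.86 (adjusted p = 0.0294, limma), and Spn, the leukocyte sialophorin, at 1.37 (adjusted p = 0.0344, limma), and neither is a member. Control replicate 1 held the lowest level of both, -3.62 for Gzmm and -1.09 for Spn, and their differences without it are not given here. Of the other lists, the median of the same difference was 2.39 for 4 erythroid genes, 2.35 for 4 neutrophil genes, 1.22 for 9 T and NK cell genes, 0.82 for 6 marrow progenitor genes, 0.54 for 2 melanocyte genes, 0.41 for 7 adipocyte genes, 0.22 for 7 synovial fibroblast genes, 0.14 for 7 macrophage genes, -0.42 for 7 endothelial genes, -0.79 for 6 skeletal muscle genes and -0.95 for 6 cartilage genes. Leaving out control replicate 1 changed the sign of the medians of the adipocyte (-0.31), macrophage (-0.37), endothelial (0.09) and cartilage genes (1.13). The others were then 2.40 for erythroid, 2.43 for neutrophil, 0.92 for T and NK cell, 0.78 for marrow progenitor, 0.41 for melanocyte, 0.10 for synovial fibroblast and -1.61 for skeletal muscle genes.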

How the data were processed

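Each array gave spot intensities; per the file headers, the authors' Agilent Feature Extraction software (version 10.7 per the submitters' processing notes) made the deposited processed intensity by subtracting background on each array. A deposited series table holds the same arrays after normalization by the authors, and its values tracked log2 of the processed signal (r 0.989 to 1.000 per array); its exact scale and centring are unstated, and it was used as an alternative only. Control and outlier spots were left out (58 to 139 outlier spots per array), spots of a probe were averaged, and log2 intensity minus the 75th percentile of the array was tested with limma 3.58.1 in R 4.3.3. Kept were 28287 probes, and the brightest stood for each of 23618 genes or transcripts. All 18 arrays entered 1 fit with 13 contrasts and an F test; p-values were Benjamini-Hochberg adjusted over all genes, with calls at 0.05. Probe names came from the files and RefSeq (GRCr8). The fit was tested on simulated data before use. Members and gene lists were chosen with earlier results of these data known. All members are named; of other lists, called genes and the brightest gene, and for likeness the 10 highest correlations. The number of arrays limits precision. Alternatives were background correction, normalization, the authors' table, the filter, the probe rule, slide, the variance model and leaving out each array; leaving control replicate 1 out of correlations and list medians, and within-slide values, were added after seeing the data.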

Additional observations from a re-analysis of the deposited data

How the results depend on the processing

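Across 398 alternative settings of the counts of called members, 395 kept a count of 0. With normexp background correction 3 members (Cma1, Tpsb2 and Kit) were called in the arthritic groups against control, at 0.65, 0.51 and -0.58 (adjusted p 0.0354, 0.0471 and 0.0371, limma), where 6927 genes were called in all, against 213 in the reported fit, and the median of all genes was -0.19. Kit was read there on its first probe, which was well above background on no control array. Its second probe had the opposite sign in the reported normalization (0.58, against -0.41). With no filter on dim probes 1 member (Mcpt1, dim on each AIA-cold-WTD and control array) was called in AIA-cold-WTD against control, among 3377 genes, against 7. Leaving out each array in turn gave 0 to 1 called members in AIA-cold against control, the 1 being Cma1 without control replicate 2 (1.04, adjusted p 0.0429, limma), and 0 in every other comparison. The cause was not tested. The count over all genes for the arthritic groups against control was 13 without control replicate 1 and 4 with slide as a random block; for AIA-cold against control it was 0 with that block and 301 without control replicate 2. Of 2786 alternatives for single members' differences 2658 were counted as the same, 124 moved, and 4 passed the threshold. Over all 2786, 142 changed sign, none of them called in the reported fit. Some of these were among the 2658, so being counted as the same does not mean that the sign held. Leaving out arrays, the arthritic difference from control ran from 0.06 to 1.42 for Cpa3, 0.21 to 1.48 for Tpsb2, 0.28 to 1.31 for Hdc, 0.03 to 0.84 for Ms4a2 and 0.25 to 0.76 for Cma1, each lowest without control replicate 1. Over the other alternatives it ran from 0.27 to 1.23 for Cpa3, 0.51 to 1.35 for Tpsb2 and 0.47 to 0.65 for Cma1. For Hdc it ran there from 0.04 to 1.36, and for Ms4a2 from -0.32 to 1.25, so that the sign of Ms4a2 did not hold. Slide as a fixed block could not be fitted for contrasts that no slide connects. No paired analysis was possible because replicate numbers follow accession order and pair no arrays. Signal over background limits Kit, Fcer1a and Mcpt1.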
